A study of Mus musculus with 28 samples.

Results

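Mitochondrial fatty acid oxidation was followed here through 10 genes chosen by name: Cpt1a, Cpt1b, Cpt2, Acadm, Acadl, Acadvl, Hadha, Hadhb, Acaa2 and Etfdh, of 55891 genes in the fullest tables. All 10 were present in the table of each of the 5 adipose depot sets and all passed the filter on low values in each. The tissue came from mice lacking Fgf13 in adipose tissue (Fgf13∆Adipo in the series text) and from control mice labelled WT, and RNA of whole fat pads was sequenced in 28 libraries, 13 knockout and 15 control. Inducible knockout was profiled in epididymal white fat (ieWAT, 3 knockout and 3 control libraries) and subcutaneous white fat (isWAT, 2 and 3). Constitutive knockout was profiled in subcutaneous white fat (sWAT, 3 and 3) and brown fat (BAT, 2 and 3). Knockout and control mice of these 4 sets were alike obese, after 20 weeks of high fat feeding. For a further epididymal set (eWAT, 3 and 3) the labels state neither the type of knockout nor the diet. For none of the sets do they state the promoter that drives recombination, the age of the mice, or whether each library is 1 animal. The p-values therefore measure the spread between these libraries, which may be technical.

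Values are CPM (each library's reads scaled to a common total of 1000000) in ieWAT, isWAT, sWAT and BAT, at 13490948 to 48812592 reads per library, and FPKM (scaled also to gene length) in eWAT, where the depth is unknown. Fgf13 itself, in CPM, was 25.2, 22.6 and 33.4 in knockout against 51.4, 41.8 and 39.7 in control ieWAT, and 31.3 and 35.3 against 58.9, 53.0 and 69.2 in isWAT. It was 43.0, 62.5 and 84.0 in knockout against 110.1, 112.8 and 105.6 CPM in control sWAT, and 0.246 and 1.87 against 6.59, 3.01 and 17.6 CPM in BAT. In these 4 sets each knockout library lay below each control library. The two-sided exact permutation p was 0.1 in ieWAT and sWAT and 0.2 in isWAT and BAT, the smallest these group sizes give. In eWAT, Fgf13 was 23.1, 17.6 and 27.0 FPKM in the libraries labelled knockout against 20.4, 27.6 and 12.9 FPKM in control libraries (exact permutation p = 0.7), so directions in eWAT rest on the labels. The brown fat marker Ucp1, the uncoupling protein of thermogenesis, stood at 4950 to 7238 CPM in BAT and at 0.377 to 7.13 CPM in the white depots. Some libraries stand apart: skeletal muscle markers summed to 2757 and 3614 CPM in knockout libraries 2 and 3 of sWAT, against 58.1 CPM in the first and 53.4 to 65.1 CPM in control sWAT, and to 8233 CPM in the second knockout library of BAT, against 52.0 CPM in the first and 59.2 to 1761 CPM in control BAT.

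Long-chain fatty acids enter mitochondria as carnitine esters: CPT1 in the outer membrane makes the ester, and CPT2 in the inner membrane turns it back into acyl-CoA. In the matrix, each turn of beta-oxidation starts with an acyl-CoA dehydrogenase matched to chain length, passes through hydratase and hydroxyacyl dehydrogenase steps, and ends with a thiolase that releases acetyl-CoA. White adipocytes mainly store and release fatty acids, whereas brown adipocytes burn them for heat. CPT1 is the step that malonyl-CoA inhibits, and the PPAR nuclear receptors with their coactivator PGC-1 are known activators of many of these genes.

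Hadha and Hadhb encode the alpha and beta subunits of one enzyme, the trifunctional protein, and lie head to head on mouse chromosome 5, with 85 bases between their annotated starts (Hadha chr5:30118304-30155162, minus strand; Hadhb chr5:30155248-30184593, plus strand; GRCm38). The stretch between the starts is printed because both genes begin from it, and the ratio of their levels is given for each depot. It comes from RefSeq's GRCm38.p6 promoter table (chr5:30155163-30155247, plus strand), and the capitals mark the letters GGGCGG, the GC box read by Sp factors.
Hadha and Hadhb: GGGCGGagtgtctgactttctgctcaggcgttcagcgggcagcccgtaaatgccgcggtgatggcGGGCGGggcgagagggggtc
Promoters of 8 of the 10 genes were in that table, and Cpt1b and Acaa2 were not. The hexamer AGGTCA, the half-site of PPAR and related receptors, was searched on both strands of each promoter, from 250 bases before the start to 50 after it. It was present in 3 of the 8 (Cpt1a, Acadm and Acadvl) and in 16.3% of all 32851 promoters of that length. GGGCGG was present in 6 of the 8 and in 35.7% of all. The 250 bases before the start are shown for Acadm, the gene with the largest change in eWAT (chr3:153944644-153944893, minus strand), and for Acadvl, which carries the hexamer but did not pass the test there (chr11:70015429-70015678, minus strand), with the hexamer in capitals, as TGACCT where it lies on the other strand.
Acadm: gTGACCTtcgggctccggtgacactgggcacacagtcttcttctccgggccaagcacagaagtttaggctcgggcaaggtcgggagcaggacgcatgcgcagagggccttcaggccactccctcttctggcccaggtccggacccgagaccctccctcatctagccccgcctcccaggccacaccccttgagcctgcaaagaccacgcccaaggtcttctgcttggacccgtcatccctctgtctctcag
Acadvl: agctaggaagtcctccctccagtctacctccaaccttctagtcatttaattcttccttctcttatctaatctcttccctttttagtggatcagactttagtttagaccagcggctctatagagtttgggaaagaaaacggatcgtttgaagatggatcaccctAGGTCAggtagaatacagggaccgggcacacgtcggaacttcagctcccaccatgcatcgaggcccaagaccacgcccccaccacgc
A match is a description of letters, and binding was not measured.

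Across depots, brown fat stood far above white fat for 9 of the 10 genes, and Cpt1a ran the other way. The 10 genes together took 1.81% and 1.88% of all reads in knockout BAT and 1.44%, 1.58% and 1.76% in control BAT, against 0.192% to 0.288% in the white depots measured in CPM. The median of the 10 ratios of BAT over sWAT control means was 5.86. The tables were normalised separately and the depots differ in knockout type, so these levels are a description without a test.

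The entry step showed the widest contrast. Cpt1b, the CPT1 form of muscle and brown fat, was at 921 and 890 CPM in knockout BAT and 824, 1003 and 790 CPM in control BAT, and at 6.33 to 27.1 CPM in the white depots. Its control mean in BAT was 65.6 times that in sWAT. Cpt1a, known as the liver form, was at 21.2 and 24.4 CPM in knockout BAT and 41.0, 39.9 and 74.8 CPM in control BAT, against 128.3 to 280.9 CPM in the white depots, and its BAT over sWAT control ratio was 0.254. Per kilobase of annotated exon, Cpt1b made up 98.8% and 99.0% of the summed Cpt1a and Cpt1b level in knockout BAT and 96.0% to 98.3% in control BAT. In the white depots it made up 4.86% to 14.2% in knockout and 9.79% to 19.1% in control ieWAT, and 13.3% and 21.9% in knockout against 17.0% to 21.6% in control isWAT. In sWAT it made up 17.2% to 18.6% in knockout and 11.1% to 13.9% in control libraries, without overlap. In eWAT, where the FPKM are already per length, Cpt1b held 4.31% to 6.41% of the pair in libraries labelled knockout and 2.80% to 3.89% in control libraries. Cpt1b shares exon bases with Gm44502, a gene model on the same strand that was at most 7.01 CPM in any library. How reads in the shared bases were counted is not stated, so the number of uncertain Cpt1b reads is unknown. Acadvl, Hadha and Etfdh share exon bases with genes on the opposite strand (Dvl2, Garem2 and 4930579G24Rik), and whether the counting used strand is not stated. Cpt2, the inner membrane partner, had a BAT over sWAT control ratio of 3.16.

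Among the matrix enzymes the ratio of BAT over sWAT control means was 11.6 for Acaa2, the medium-chain thiolase, and 10.5 for Acadvl, the very long chain dehydrogenase. It was 5.53 for Acadl, the long chain dehydrogenase, and 2.79 for Acadm, the medium chain one. Etfdh, which passes the electrons of these dehydrogenases to ubiquinone, had a ratio of 4.89. The trifunctional protein subunits differed from each other, at 7.94 for Hadhb and 6.18 for Hadha. Their ratio within a library, Hadhb over Hadha in CPM, was 2.22 and 2.39 in knockout BAT and 2.03 to 2.34 in control BAT. It was 1.80 to 1.98 in knockout and 1.72 to 1.78 in control sWAT, 1.29 and 1.40 against 1.27 to 1.38 in isWAT, and 1.06 to 1.13 against 0.947 to 1.24 in ieWAT. Mitochondrially encoded transcripts took 27.75% to 35.83% of BAT reads and 5.48% to 5.63% of control sWAT reads. With them left out of the totals the median ratio was 8.15, Cpt1b stood at 91.4 and Cpt1a at 0.348.

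Among white depots the order was gene by gene. The control means of Cpt2, Acadm, Acadl, Acadvl, Hadhb and Etfdh were 1.23 to 1.51 times as high in isWAT as in ieWAT. Their control libraries did not overlap. How many of all genes do the same was not counted, so the separation cannot be called particular to these genes. For Cpt1a (0.906), Cpt1b (1.43), Hadha (0.987) and Acaa2 (1.16) the libraries overlapped. Set against the summed white adipocyte markers named below, the 10 genes equalled 12.9% to 14.1% in control ieWAT and 9.94% to 10.5% in control isWAT. Fabp4 was the largest part of the marker sum, with control means of 5724 CPM in ieWAT and 9063 CPM in isWAT. The part of cell makeup in these levels was not tested. The full order by control mean was BAT, sWAT, isWAT and ieWAT for Acadm, Acadl, Hadhb and Etfdh, with sWAT and isWAT overlapping for Acadl and Etfdh. It was BAT, isWAT, sWAT and ieWAT for Cpt2, with no overlap of neighbours, and for Acadvl and Acaa2, where sWAT overlapped both its neighbours. For Cpt1b the white depots overlapped in the order isWAT, ieWAT, sWAT, and for Hadha in the order ieWAT, isWAT, sWAT. Cpt1a was highest in ieWAT, which overlapped isWAT, and lower in sWAT and lowest in BAT without overlap.
Per kilobase of annotated exon, Acaa2 led in control BAT at 1490 ± 118 CPM per kilobase (SD, n = 3), with Acadl at 993 ± 123 and Acadvl at 986 ± 76.8. In control sWAT Acadl led at 180 ± 11.3 CPM per kilobase, followed by Acadm at 138 ± 7.16 and Acaa2 at 129 ± 10.4 (SD, n = 3 each). With the longest transcript as the length, Acadm came first in each of these 3 white sets, at 155, 234 and 265 CPM per kilobase in control ieWAT, isWAT and sWAT.

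**Figure D1:**
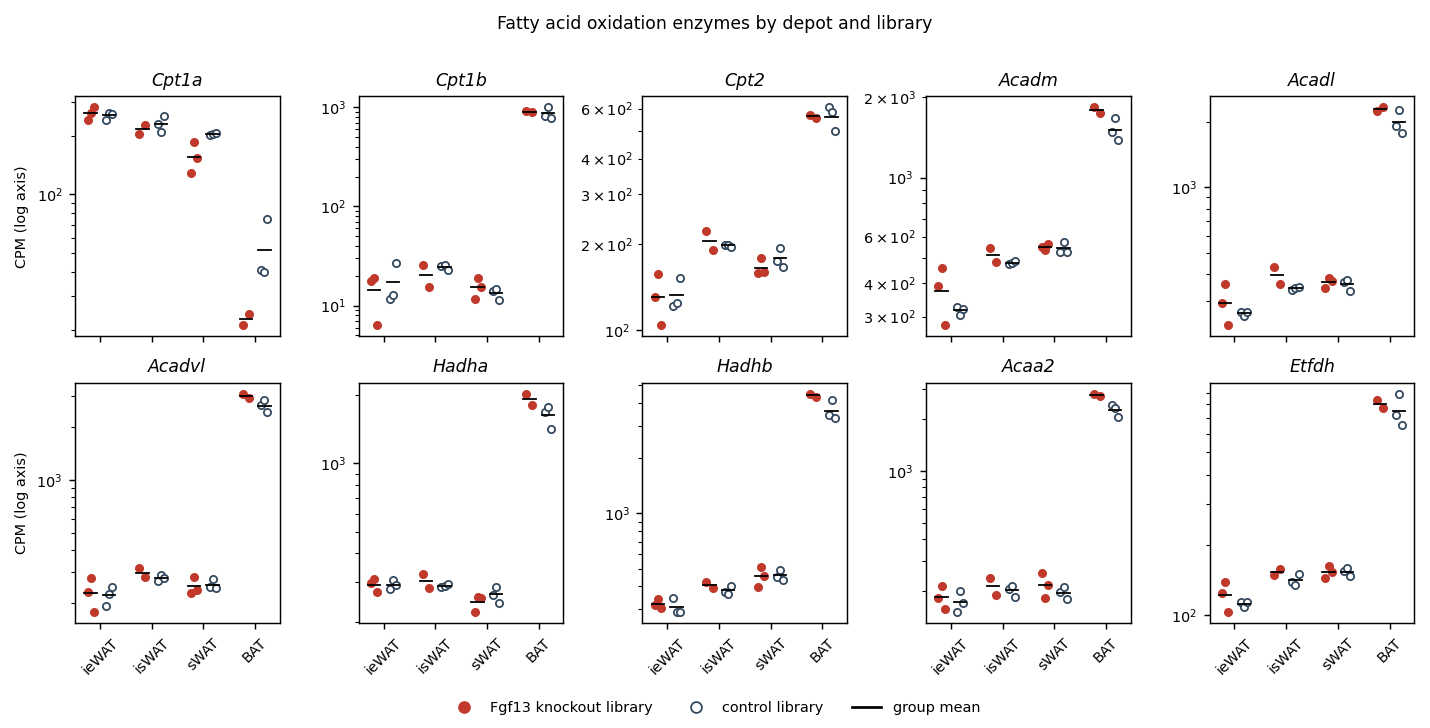
Level of each of the 10 genes in every library of the 4 CPM sets, on log axes of CPM, with filled red points for Fgf13 knockout libraries, open points for control libraries to their right, and a bar for each group mean. BAT stands above the white depots for 9 genes and below them for Cpt1a, where BAT runs from 21.2 to 74.8 CPM and the white depots from 128.3 to 280.9 CPM.

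The eWAT comparison was the one in which members passed the test. Of the 10 genes 5 rose in the libraries labelled knockout, namely Cpt2, Acadm, Acadl, Hadhb and Acaa2, and 0 fell (limma with Benjamini-Hochberg adjustment over all genes, threshold 0.05). Over all 13736 genes tested, 14.9% passed, 10.2% higher and 4.70% lower. The median change of the 10 genes was 0.44 on the log2(FPKM + 1) scale, against -0.03 over all genes. For 6 of the 10 every library labelled knockout lay above every control library (21.6% of all genes), and for Cpt1a every one lay below (19.6% of all genes). The adjusted calls depended on single libraries, while the changes kept their direction: 0 of the 10 passed without knockout library 3 or without control library 2, and 2 to 4 passed without each of the others. Over the same 6 fits the log2 change ran from 0.64 to 0.81 for Cpt2, 0.70 to 0.89 for Acadm, 0.38 to 0.51 for Acadl, 0.39 to 0.54 for Hadhb and 0.40 to 0.58 for Acaa2. With no filter on low values 0 passed, and 0 passed in a second deposited table, in TPM, whose columns carry the same eWAT library names, where the changes of Cpt2 and Etfdh were -0.14 and -0.40.

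At the entry step, Cpt2 was 39.9, 50.8 and 49.1 FPKM in libraries labelled knockout against 30.1, 28.9 and 25.5 FPKM in control libraries. The groups did not overlap, and the mean was 1.66 times as high (log2 change 0.70, SE 0.12, limma adjusted p = 0.0157). Cpt1a was 61.5, 63.3 and 65.1 FPKM in libraries labelled knockout against 70.4, 81.1 and 82.5 FPKM in control libraries. Here too the groups did not overlap, but with the knockout libraries lower, and the change of -0.30 (SE 0.09) missed the threshold (limma adjusted p = 0.0690); without the first control library it passed at -0.37. Cpt1b, the lowest of the 10 in eWAT, was 4.21, 3.05 and 2.93 FPKM against 2.39, 3.28 and 2.38 FPKM, with overlap (0.25, SE 0.16).

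Of the dehydrogenases, Acadm was 180.0, 195.0 and 227 FPKM in libraries labelled knockout against 124, 122 and 95.6 FPKM in control libraries. Every knockout library was above every control library, and the change was the largest of the 10 (1.77 times; log2 change 0.82, SE 0.14, limma adjusted p = 0.0167). Acadl was 154, 180 and 186 FPKM against 123, 129 and 131 FPKM, again without overlap (0.43, SE 0.10, limma adjusted p = 0.0349). Acadvl was 67.2, 90.0 and 85.4 FPKM against 63.7, 63.4 and 71.5 FPKM, where the first knockout library lay inside the control range (0.28, SE 0.13, limma adjusted p = 0.178).

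Of the subunits of the trifunctional protein, Hadhb passed the test and Hadha did not. Hadhb was 206, 199 and 244 FPKM in libraries labelled knockout against 151, 168 and 145 FPKM in control libraries, without overlap (log2 change 0.48, SE 0.11, limma adjusted p = 0.0366). Hadha was 127, 115 and 134 FPKM against 109, 118 and 114 FPKM, and its groups overlapped (0.14, SE 0.09, limma adjusted p = 0.321). The ratio of Hadhb to Hadha was 1.63 to 1.82 in libraries labelled knockout and 1.27 to 1.42 in control libraries; whether the changes of the subunits differ was not tested. Acaa2, the thiolase, was 131, 101 and 132 FPKM against 86.5, 88.8 and 86.7 FPKM (0.46, SE 0.12, limma adjusted p = 0.0468). Etfdh was 43.1, 59.0 and 55.5 FPKM against 39.3, 40.4 and 34.4 FPKM, without overlap, and its change of 0.45 (SE 0.13) missed the adjusted threshold (limma adjusted p = 0.0688). Leaving out each library in turn, Cpt2 and Acadm passed in 4 of 6 fits, Acadl, Acaa2, Etfdh and Cpt1a in 1 of 6, and Hadhb in 0 of 6. Etfdh passed without knockout library 1 (0.58, limma adjusted p = 0.0392).

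Markers of some cell types in the tissue also differed, in both directions. White adipocyte markers (Adipoq, Plin1, Lep, Fabp4, Pparg, Lipe, Cidec, Slc2a4 and Retn) rose for 9 of 9 genes, with a median log2 change of 1.28, and summed to 17030 to 21570 FPKM in libraries labelled knockout against 7216 to 9244 FPKM in control libraries. Macrophage markers fell for 3 of 9 (Adgre1, Lyz2 and Mrc1) and summed to 3896 to 5353 FPKM against 6480 to 11630 FPKM, and endothelial markers rose for 5 of 8. Over all genes 10.2% rose and 4.70% fell by the same test. Of the lymphocyte, fibroblast and progenitor, and mesothelial markers 0 passed, with 9, 8 and 5 genes tested and median log2 changes of -0.99, -0.19 and 0.22. The 10 oxidation genes summed to 1014, 1056 and 1181 FPKM in libraries labelled knockout against 799, 843 and 788 FPKM in control libraries. As a percentage of the adipocyte marker sum they made up 5.36% to 5.95% in libraries labelled knockout and 8.65% to 10.9% in control libraries. Fabp4 was the largest part of that marker sum, with means of 13520 against 6213 FPKM, so the percentage mostly follows this 1 gene. In such bulk tissue, fewer cells of a type and less RNA per cell cannot be told apart, and the part these markers have in the members' changes was not tested. In FPKM, mitochondrially encoded transcripts also took more of the total, at 7.09% to 11.43% against 5.55% to 5.98%. By the TPM values under the same library names the groups overlapped, at 0.78%, 4.84% and 1.66% against 2.25%, 0.71% and 1.41%.

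**Figure D2:**
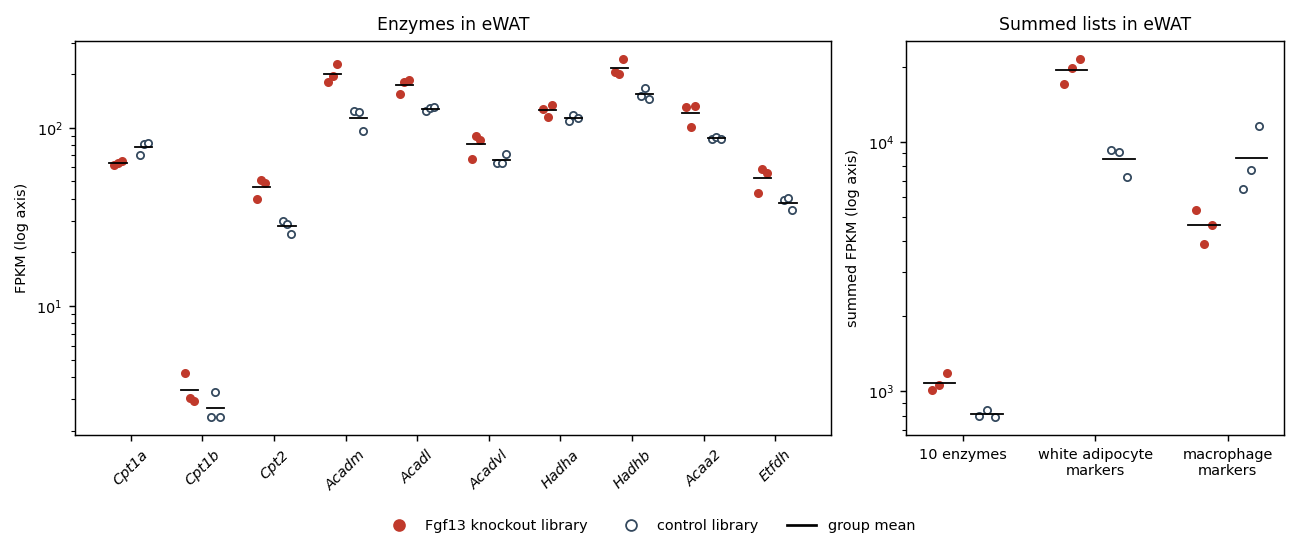
Left, FPKM of the 10 genes in each eWAT library on a log axis, with filled red points for libraries labelled knockout, open points for control libraries and bars for group means. Right, the summed FPKM of the 10 genes, 9 white adipocyte markers and 9 macrophage markers on a log axis: the 10 genes run from 1014 to 1181 FPKM in libraries labelled knockout and from 788 to 843 FPKM in control libraries, and the adipocyte markers from 17030 to 21570 and from 7216 to 9244 FPKM.

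The rest of the pathway in eWAT was read from lists of related genes. Of 13 other matrix enzymes 11 rose and 0 fell, with a median log2 change of 0.67, among them Acads, the short chain dehydrogenase (82.5 ± 4.98 against 53.5 ± 2.31 FPKM; 0.61, SE 0.08, limma adjusted p = 0.0122), Acad11 (log2 change 0.84, SE 0.13) and Decr1, the dienoyl-CoA reductase for unsaturated chains (84.6 ± 11.6 against 46.3 ± 5.94 FPKM; SD, n = 3 each throughout). Of 9 peroxisomal genes 7 rose and 0 fell, including Abcd2, a transporter of very long chain acyl-CoA (log2 change 1.12, SE 0.17), and Hsd17b4 (134 ± 9.54 against 89.3 ± 4.07 FPKM). Of 12 citric acid cycle genes 6 rose and 0 fell, with Idh3a at 121 ± 15.6 against 69.5 ± 9.10 FPKM, Fh1 at 57.7 ± 4.70 against 42.1 ± 1.06 FPKM and citrate synthase, Cs, at 142 ± 8.37 against 108 ± 3.00 FPKM. The 10 members equalled 76.5% to 82.2% of the citric acid cycle sum in libraries labelled knockout and 75.4% to 78.2% in control libraries, with overlap. Of 4 other carnitine genes 1 rose, the carnitine acetyltransferase Crat (102 ± 7.61 against 70.7 ± 8.42 FPKM). Of 3 genes that set malonyl-CoA 2 rose: Mlycd, which degrades it (22.9 ± 2.10 against 16.2 ± 0.791 FPKM), and Acaca, which makes it (25.5 ± 2.21 against 16.3 ± 3.68 FPKM). Of 8 further PPAR targets 2 rose, the lipase inhibitor Angptl4 (435 ± 39.0 against 256 ± 26.6 FPKM) and the uncoupling protein family member Ucp3 (7.99 ± 2.23 against 4.22 ± 0.755 FPKM). Of 8 regulators 5 were tested and 0 passed (limma). Ppara, the receptor itself, was below the filter, at 1.05 ± 0.192 against 0.624 ± 0.272 FPKM.

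In BAT, constitutive knockout was compared with control, and 0 of the 10 genes passed with limma (smallest limma adjusted p = 0.237), against 0.00755% of 13253 genes. At an unadjusted p under 0.05 there was 1 of the 10, Cpt1a (19.2% of all genes). With edgeR 0 passed (0.00% of all genes), and DESeq2 called 2, Cpt1a and Acaa2, against 5.97% of all genes. The median change of the 10 was 0.19, against -0.18 over all genes. Another scaling (TMM) moved the median of all genes by 0.19 and that of the 10 to 0.40, so that the distance between them was 0.38 as deposited and 0.40 with TMM. For 5 of the 10 every knockout library lay above every control library (6.37% of all genes), for Cpt1a every one lay below (38.1% of all genes), and 4 overlapped.

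The thiolase Acaa2 was 2792 and 2719 CPM in knockout BAT against 2409, 2317 and 2064 CPM in control BAT. Without overlap, its change was 0.29 (SE 0.13) with limma and 0.48 with DESeq2 (DESeq2 adjusted p = 0.0445). Hadhb was 4477 and 4341 CPM in knockout against 3425, 4161 and 3334 CPM in control BAT (0.28, SE 0.14), and Hadha 2021 and 1815 against 1684, 1780 and 1422 CPM (0.24, SE 0.14). Both subunits stood above control, Hadha by a narrow margin over the second control library. Acadm was 1837 and 1745 CPM in knockout against 1485, 1671 and 1385 CPM in control BAT (0.25, SE 0.13), and Acadvl 3077 and 2918 against 2663, 2845 and 2433 CPM (0.18, SE 0.13). Acadl was 2234 and 2332 CPM against 1922, 2265 and 1785 CPM, and here the groups overlapped at the second control library. Cpt2 was 571 and 558 CPM against 607, 582 and 500 CPM, and Etfdh 838 and 773 against 719, 886 and 652 CPM. For Cpt2, Etfdh and Cpt1b the knockout libraries lay inside the control range.

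Cpt1a was 21.2 and 24.4 CPM in knockout BAT against 41.0, 39.9 and 74.8 CPM in control BAT, a mean 0.439 times as high (log2 change -1.10, SE 0.30, limma adjusted p = 0.237, DESeq2 adjusted p = 0.0142). Macrophage markers lay lower in the knockout libraries for 9 of 9 genes without overlap (38.1% of all genes), and summed to 104 and 105 CPM against 736, 257 and 1203 CPM. The fibroblast and progenitor list summed to 349 and 527 CPM against 1267, 616 and 2187 CPM. Control library 3, with the most Cpt1a, had the most of both lists and the least summed level of the 10 genes, which were 18790 and 18120 CPM in knockout against 15780, 17550 and 14440 CPM in control BAT. The part of these cells in either direction was not tested. Citric acid cycle genes kept close to the members, whose sum was 91.3% and 91.4% of theirs in knockout and 88.8% to 89.9% in control BAT. In the list that sets malonyl-CoA, the acetyl-CoA carboxylases Acaca (1377 ± 379, n = 2, against 493.5 ± 229 CPM, n = 3, SD) and Acacb (619 ± 117 against 315 ± 45.8 CPM) lay higher in knockout BAT without overlap, at limma adjusted p = 0.237 for each. Mlycd was 123 ± 5.43 against 114 ± 8.89 CPM, with overlap. Of 8 further PPAR targets 3 changes were above 0, with a median of -0.18, against -0.18 over all genes. Without overlap Ucp3 lay higher (94.2 ± 14.7 against 60.6 ± 3.53 CPM), as did 6.37% of all genes. Fgf21, Acot2 and Plin5, 3 of the 8, lay lower without overlap, a share near the 38.1% of all genes. In BAT 0 genes of these pathway lists passed with limma.

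**Figure D3:**
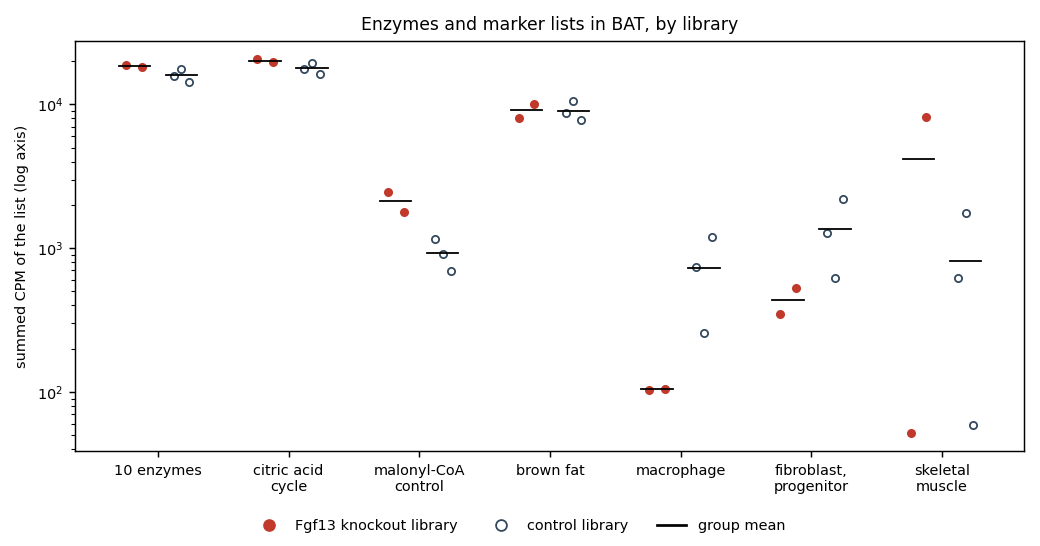
Summed CPM of the 10 genes and of 6 other lists in each BAT library, on a log axis, with filled red points for knockout libraries, open points for control libraries and bars for group means. The 10 genes sit at 18790 and 18120 CPM in knockout and 14440 to 17550 CPM in control libraries, the macrophage markers at 104 and 105 against 257 to 1203 CPM, and the muscle markers range widely in both groups.

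In sWAT, also constitutive, 0 of the 10 passed with limma, edgeR or DESeq2 (0.0217%, 0.00724% and 0.376% of 13816 genes in that order), and 1, Cpt1a, had an unadjusted p under 0.05 (9.66% of all genes). Cpt1a was 128, 187 and 155 CPM in knockout against 201, 205 and 207 CPM in control sWAT, and every knockout library lay lower, as for 12.3% of all genes. Its log2 change was -0.40 (SE 0.13, limma adjusted p = 0.447), and the groups of the other 9 overlapped. The first knockout library, without muscle transcripts, had the lowest Cpt1a. Set alone against the controls it gave -0.67 (limma adjusted p = 0.00805), with its spread taken to be like that of the controls, and in that fit 4.69% of 14522 genes passed. Macrophage markers were lowest in the same library, at 852 CPM, against 1881 and 1246 CPM in the other knockout libraries and 1702 to 2086 CPM in control sWAT; their part was not tested. The other 9 genes kept within 0.17 log2 units of control (largest change 0.17, SE 0.17, for Cpt1b), and the median change was -0.01, against -0.05 over all genes. Cpt1b was 11.7, 18.8 and 15.5 CPM in knockout against 13.9, 14.5 and 11.4 CPM in control sWAT, and the groups overlapped. When the knockout libraries with muscle transcripts were left out, the change was -0.16 for Cpt1b, -0.07 for Acadl and -0.26 for Hadha, and the part of muscle in these shifts was not tested. Pdk4, a PPAR target that restrains pyruvate dehydrogenase, was 68.5 ± 21.1 against 102 ± 4.88 CPM (limma adjusted p = 0.485), and 0 genes of the pathway lists passed.

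In isWAT, after inducible knockout, 0 of the 10 passed with limma, edgeR or DESeq2 (0.00701%, 0.00701% and 1.91% of 14258 genes in that order), and 0 had an unadjusted p under 0.05 (13.1% of all genes). The median change was 0.09, against -0.03 over all genes, and 8 of 10 changes were above 0. Acadl was 434 and 362 CPM in knockout against 337, 345 and 350 CPM in control isWAT, without overlap, unlike the other 9 (0.20, SE 0.10, limma adjusted p = 0.420; 12.2% of all genes lay higher without overlap). The 10 genes summed to 2879 CPM in knockout library 1 and 2579 CPM in knockout library 2, against 2531, 2547 and 2616 CPM in control isWAT. Without knockout library 1 the median change was -0.01. Cpt1a was 206 and 228 CPM against 230, 211 and 253 CPM, and Cpt1b 25.5 and 15.4 CPM against 25.4, 25.7 and 22.8 CPM, both with overlap. The remaining matrix enzymes of the pathway lay above 0 for 13 of 13 genes with a median of 0.17, and for 6 of them without overlap, led by Etfa, a subunit of the flavoprotein that feeds Etfdh (297 ± 29.1, n = 2, against 251 ± 4.60 CPM, n = 3, SD). Of the regulators Esrrg, an estrogen-related receptor, was 4.42 ± 0.136 against 7.62 ± 1.72 CPM. With limma 0 genes of the pathway lists passed. Of the cell type markers, macrophage genes lay higher without overlap for 5 of 9, beside 12.2% of all genes, and 1 lay lower (median 0.33). The median change of the endothelial markers was -0.20, and 0 of either list passed with limma. The white adipocyte markers summed to 27410 and 27350 CPM in knockout against 24690 to 25610 CPM in control isWAT, although their median change was -0.06. Fabp4, the largest part of these sums, had means of 11480 CPM in knockout and 9063 CPM in control isWAT. The part of these cells in the members' values was not tested.

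In ieWAT, also inducible, 0 of the 10 passed with limma, edgeR or DESeq2 (0.00%, 0.00% and 0.217% of 14749 genes in that order). At an unadjusted p under 0.05 there were 0 of the 10 (2.62% of all genes), and the groups overlapped for each of the 10 (5.11% of all genes did not overlap). The median change was 0.05, against 0.02 over all genes. Knockout libraries spread more widely than control libraries: the 10 genes summed to 2224, 2530 and 1915 CPM in knockout and 2051, 2089 and 2140 CPM in control ieWAT. Acadm had the largest positive change and was 390, 458 and 278 CPM against 326, 304 and 320 CPM (0.22, SE 0.18). Knockout library 2 was high and knockout library 3 low, and the white adipocyte marker sums had the same order, at 17980, 20790 and 12680 CPM, with macrophage markers in the reverse order, at 6386, 4173 and 9630 CPM. Lymphocyte markers had changes above 0 in ieWAT for 10 of 10 genes, with a median log2 change of 1.31. Of the 10 lymphocyte genes 3 lay higher in knockout without overlap, and 0 passed with limma. The part of these cells was not tested. Cpt1b was 17.8, 18.9 and 6.33 CPM against 11.6, 12.7 and 27.1 CPM (-0.28, SE 0.48). Cpt1a, at 243, 264 and 281 CPM against 243, 263 and 260 CPM, was instead highest in knockout library 3. Of the pathway lists 0 genes passed with limma.

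**Figure D4:**
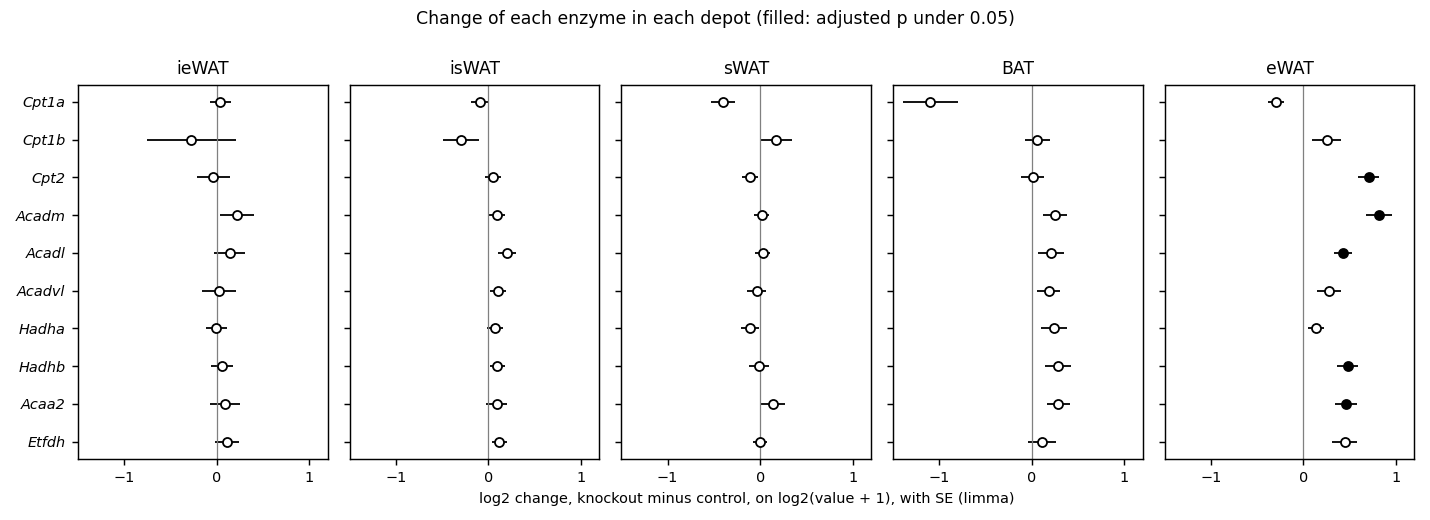
Log2 change of each of the 10 genes in knockout against control, with its standard error from limma on log2(value + 1), in one panel per depot; filled points passed an adjusted p of 0.05. Filled points occur in eWAT only, for Cpt2, Acadm, Acadl, Hadhb and Acaa2. Cpt1a lies left of 0 in sWAT (-0.40), BAT (-1.10), eWAT (-0.30) and isWAT (-0.09), and right of 0 in ieWAT (0.04).

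Side by side, Cpt1a had log2 changes of -0.40 in sWAT, -1.10 in BAT and, by its labels, -0.30 in eWAT. Each was without overlap of the groups and none passed limma's threshold. Of all genes, 12.3%, 38.1% and 19.6% lay lower without overlap in that order. The changes of Cpt1a were -0.09 in isWAT and 0.04 in ieWAT, with overlap. Acadm had 0.02, 0.25, 0.82, 0.10 and 0.22 in the same sets. Each set has its own control libraries, the labels do not say whether sets share mice, and the difference between depots was not tested.

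The 10 genes were also compared in how they varied within groups, as deviations of log2(CPM + 1) from the group mean over the 22 libraries measured in CPM. Against the mean of the other 9, Pearson's r was 0.93 for Acadvl, 0.90 for Acadl and Cpt2, 0.83 for Acadm, 0.81 for Cpt1b, 0.70 for Etfdh and 0.69 for Hadha. It was lower for Hadhb (0.44) and Acaa2 (0.29), and -0.30 for Cpt1a. These pooled values cover unlike depots of 5 or 6 libraries each. In a mean that includes it, Cpt1b weighs most, as its deviations were the widest (SD 0.359, against 0.0923 to 0.188 for the other genes). For Cpt1a r was -0.39 in ieWAT, -0.51 in isWAT, 0.63 in sWAT and -0.89 in BAT. For Hadhb it was 0.12, 0.56, 0.97 and 0.98 in the same order, and for Acaa2 0.66, 0.66, -0.55 and 0.43. Etfdh had -0.44 in isWAT against 0.91 to 0.99 in the other 3, Acadm 0.29 in sWAT and Cpt2 0.43 in BAT. These are descriptions, since the genes share libraries, depth and cell makeup. Among 7477 other genes the 6 most like the members' mean included Atp5b, the catalytic subunit of ATP synthase (0.94), Lonp1, a matrix protease (0.94), Decr1 (0.94) and Coq9 of ubiquinone synthesis (0.93).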

How the data were processed

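RNA of mouse fat was extracted with a Qiagen kit and sequenced on an Illumina HiSeq2000, per the labels' protocols. Salmon, FastQC, MultiQC and DESeq2 1.38.3 are named in the submitters' processing notes, without roles, and genome build and annotation were not stated in any source used. The deposited ieWAT, isWAT, sWAT and BAT tables hold CPM by their values, although named FPKM, and whole reads were recovered from 100% of values (tolerance 0.01 reads). The deposited eWAT table holds FPKM. A second deposited eWAT table holds TPM and served as an alternative only, since the FPKM table is the one named for that depot, and another table proportional to it was left out. Symbols, exon lengths and coordinates came from GENCODE M21 (GRCm38), matching 92.0% of IDs (96.0% in ieWAT).

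Each depot was fitted alone with limma 3.58.1 in R 4.3.3 (lmFit, eBayes with trend and robust) on log2(value + 1), keeping genes that reached 1 in a number of libraries equal to the smaller group. Tests were two-sided, with Benjamini-Hochberg adjustment over all genes and a threshold of 0.05. Fgf13 was tested by exact permutation. Recovered reads were also fitted with edgeR 4.0.16 (quasi-likelihood) and DESeq2 1.42.0. Scripts were tested on simulated data. Other alternatives were scaling, totals without mitochondrial transcripts, filters, pseudocounts, the replicate number as a block, and leaving out libraries. The 10 genes and the lists were chosen with earlier results of these data known, and a list is described by its counts and median beside those of all genes. Named are the 10 genes, Fgf13, up to 3 genes of smallest p per pathway list and depot, marker genes, and the 6 genes most like the members. Some genes that this rule selects are not reported here.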

Additional observations from a re-analysis of the deposited data

How the results depend on the processing

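The 5 eWAT calls were lost without a filter on low values (0 members, 544 genes), with the replicate number as a block (0 members, 0 genes) and in the TPM table (0 members, 1 gene), where Cpt2 (-0.141) and Etfdh (-0.403) reversed; leaving out 1 library gave 0 to 4 members and 12 to 1819 genes. In BAT DESeq2 called 2 members and 791 genes. The median member change in BAT was 0.401 with TMM, 0.386 with edgeR and 0.383 with DESeq2. Genes called in BAT were 7 without a filter and 0 with a filter at 5, a pseudocount of 0.1, eBayes without its options, the block or edgeR. In sWAT, without the 2 knockout libraries with muscle transcripts, 1 member (Cpt1a) and 681 genes were called, the median was -0.16, and Cpt1b (-0.16) and Acadl (-0.065) reversed. Genes called in sWAT were 5 without a filter or with a pseudocount of 0.1, 1 with the block or edgeR, and 52 with DESeq2. In isWAT they were 3 without a filter, 0 without eBayes options, 7 with the block and 273 with DESeq2, and in ieWAT 1 with the block and 32 with DESeq2. The BAT over sWAT ratio was 8.15 without mitochondrially encoded transcripts.

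Small changes that were not called turned sign in sWAT: Acadvl, Hadhb and Etfdh with TMM (0.008, 0.031 and 0.046), edgeR (0.013, 0.038 and 0.048) and DESeq2 (0.015, 0.04 and 0.049), and Hadhb (0.011) and Etfdh (0.026) without mitochondrial transcripts; in ieWAT Hadha did so there (0.0). In BAT, Cpt1b (-0.006) and Cpt2 (-0.074) did so with the block. Leaving out 1 library at a time also turned signs. In ieWAT the ranges were -0.015 to 0.298 for Acadl, -0.123 to 0.195 for Acadvl, -0.02 to 0.195 for Acaa2, -0.012 to 0.094 for Cpt1a, -0.531 to 0.188 for Cpt1b, -0.181 to 0.117 for Cpt2 and -0.044 to 0.05 for Hadha, with 0 to 1 genes called. In isWAT they were -0.06 to 0.162 for Cpt2, -0.031 to 0.178 for Hadha, -0.076 to 0.25 for Acaa2, -0.641 to 0.05 for Cpt1b and -0.007 to 0.17 for the median, with 0 to 12 genes called. In sWAT they were -0.131 to 0.021 for Acadvl, -0.104 to 0.077 for Hadhb, -0.045 to 0.045 for Etfdh, -0.026 to 0.073 for Acadl and -0.007 to 0.057 for Acadm, with 1 to 120 genes called. In BAT they were -0.074 to 0.065 for Cpt2 and -0.006 to 0.166 for Cpt1b, with 0 to 2201 genes called, the highest without the second control library. The cause of these shifts was not tested.

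The labels do not say that equal replicate numbers mark a shared animal or day. Deviations of same-numbered libraries correlated at -0.39 to 0.14 in ieWAT, -0.56 and -0.33 in isWAT, -0.24 to 0.00 in sWAT, -0.16 and 0.39 in BAT and -0.32 to 0.06 in eWAT. With so few libraries, these values cannot show whether an animal or day was shared. Whether the fit with the block is the better one was not tested. Groups of 2 or 3 libraries, and the unknown depth in eWAT, limit what these comparisons can show.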
